A study of Mus musculus with 6 samples.

Results

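Genes that encode the main signals for osteoclast formation were followed through Achilles tendon cells before and after tendon injury. They are Tnfsf11 (RANKL), Tnfrsf11a (RANK), Tnfrsf11b (osteoprotegerin), Csf1 and Il34, and were taken by symbol as 5 of the 33696 genes in the count matrices. Cells came from the Achilles tendon of Gli1-CreERT2; Ai9 mice given tamoxifen, sorted by flow cytometry into Gli1+ and Gli1- fractions. Tendons were uninjured or were taken 7 or 21 days after Achilles tenotomy (dpi), which is followed by heterotopic ossification in this model. Each of the 6 combinations of sort and time point was 1 10x 3′ library, from 8 mice per time point with both sexes in equal number by the labels. No group had a replicate library, and no comparison was tested except that of the sorts, paired by time point.

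All groups, controls included, carried the Gli1-CreERT2 and Ai9 alleles and received tamoxifen. The Ai9 reporter marks cells in which the Gli1 promoter drove CreERT2 while tamoxifen was present, and their descendants. Gli1+ is thus meant as a lineage label and not as a measure of current Gli1 transcript. The Gli1 transcript was at 6.66, 2.11 and 4.10 CPM (a gene's count scaled to a common total per group) for the Gli1+ sort in the order uninjured, 7 dpi, 21 dpi. It was at 7.73, 2.52 and 4.12 CPM for the Gli1- sort, no lower than in the matching Gli1+ library. These values are over all cells of a library, and the libraries differed in cell mixture. In the Gli1+ uninjured library 3125 of 7508 cells were T or other lymphoid cells. The part of cell mixture in this comparison was not tested. The purity of the sort was not tested either, so descent from Gli1-expressing cells is not shown for each cell of a Gli1+ library.

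RANKL is a membrane-bound or soluble cytokine of the tumour necrosis factor family, made by osteoblast-lineage cells, fibroblasts and activated T cells. It binds RANK on myeloid precursors and drives them to become osteoclasts, the cells that resorb bone and calcified cartilage, and osteoprotegerin is a soluble decoy receptor that captures RANKL before it reaches RANK. CSF1 and IL-34 are alternative ligands of the receptor CSF1R and keep those precursors alive. In endochondral ossification, hypertrophic chondrocytes and osteoblasts are known sources of RANKL and osteoprotegerin.

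The libraries held 7508 to 12042 cells after filtering, with 62710551 to 122826699 unique molecular identifiers (UMIs) per library and a median of 4541.5 to 10256.5 UMIs per cell. Pairs of libraries shared 17 to 38 cell barcodes. Cells with Xist and no Y-linked transcript made up 68.7% of the Gli1+ uninjured library, 92.8% and 91.0% of the 21 dpi libraries, and under 0.01% of the other 3 libraries, in which 60.9% to 72.0% of cells had a Y-linked transcript and no Xist. The labels give equal sexes, yet most libraries were of 1 sex call. Ratios within 1 sex call could be had for 3 of the 4 contrasts over uninjured tendon, and for Gli1- at 21 dpi sex and time point cannot be told apart. T cells and other lymphoid cells made up 41.6% of the Gli1+ uninjured library and at most 1 cell of any other library. In the Gli1+ 7 dpi library 99.7% of cells had 3 or more keratin-list genes, against 0.00830% to 27% elsewhere, so there a cell was called epidermal only where that list took 1% or more of its UMIs. Cells with markers of more than 1 lineage, or of a lineage together with Pdgfra, made up 7.63% to 16.9% of a library and were set aside as mixed.

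Mesenchymal cells were taken as cells with 1 or more UMIs of Pdgfra (a receptor of fibroblasts and mesenchymal progenitors), under 5 UMIs of Col2a1 and no marker set of another lineage. There were 1627, 4719 and 4264 such cells for the Gli1+ sort in the order uninjured, 7 dpi, 21 dpi, and 4641, 6291 and 5212 for the Gli1- sort. The 3-marker epidermal rule of the other libraries would have left 10 such cells in the Gli1+ 7 dpi library. Its 4719 cells passed the looser 1% rule, so contrasts with that library set unlike epidermal rules side by side. Cartilage-gene cells had 5 or more UMIs of Col2a1, the main collagen of cartilage, and no marker set of another lineage, which left out 113 and 83 such cells at 21 dpi. They numbered 16, 33 and 176 for the Gli1+ sort and 1, 41 and 304 for the Gli1- sort. Values are CPM of the summed group, with exact Poisson 95% intervals in brackets that cover counting error only and not the spread between animals. Because a 3′ assay counts transcript ends with unequal capture, levels of different genes were not ranked against each other.

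In Pdgfra cells, Tnfsf11 was low in uninjured tendon and higher at both times after injury, in both sorts. In the Gli1+ libraries it was at 2.57 CPM [1.85, 3.49] in uninjured tendon, 29.9 CPM [28.5, 31.4] at 7 dpi and 97.9 CPM [95, 101] at 21 dpi. In the Gli1- libraries it was at 0.861 CPM [0.562, 1.26], 30.3 CPM [29.1, 31.6] and 119 CPM [116, 121]. The order was the same in both sorts. At 7 dpi the sorts were indistinguishable by counting error, with a log2 ratio of Gli1+ over Gli1- of -0.02 [-0.11, 0.07]. There only the Gli1+ cells were taken by the 1% epidermal rule, and the part of this in the ratio was not tested. Over the uninjured library Tnfsf11 was 11.6-fold higher at 7 dpi in Gli1+ cells (log2 ratio 3.54 [3.09, 4.02]) and 38.1-fold higher at 21 dpi (5.25 [4.81, 5.73]). In Gli1- cells it was 35.2-fold (5.14 [4.58, 5.76]) and 138-fold (7.11 [6.55, 7.72]) higher, from only 26 UMIs in the uninjured cells. Within cells of 1 sex call the ratio was 4.11 for Gli1+ cells with a Y-linked transcript at 7 dpi, 5.11 for Gli1+ cells with Xist at 21 dpi and 5.04 for Gli1- cells with a Y-linked transcript at 7 dpi. The size of these ratios depended on the cells taken, and their direction did not in any alternative run. Among cells of 5000 to 12000 UMIs they were 3.39 and 4.15 for Gli1+ and 4.22 and 5.26 for Gli1-, with other lineages kept in 1.43 and 3.32 for Gli1+, and without bone-gene cells 4.71 and 6.40 for Gli1+. Endothelial cells, which should make little RANKL, held Tnfsf11 at 12.5 CPM [10.5, 14.8] in the Gli1- 21 dpi library and at 1.86 CPM [0.384, 5.44] in the Gli1+ one. At 7 dpi mural cells, those of vessel walls, held 21 Tnfsf11 UMIs of 901760 in the Gli1+ and 42 of 3491390 in the Gli1- library. Pdgfra cells there held 1679 of 56089942 and 2412 of 79530265, and endothelial cells 3 of 509983 and 26 of 4014336. The Gli1+ mural share was thus near the Pdgfra one. The part of background RNA in the Pdgfra levels was not tested. After thinning to 2000 UMIs per cell, 8.53% of Gli1- Pdgfra cells at 21 dpi were expected to show a Tnfsf11 UMI (19.99% unthinned, median 9259.5 UMIs), against 1.68% of endothelial cells (3.12% unthinned, median 4777 UMIs).

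**Figure D1:**
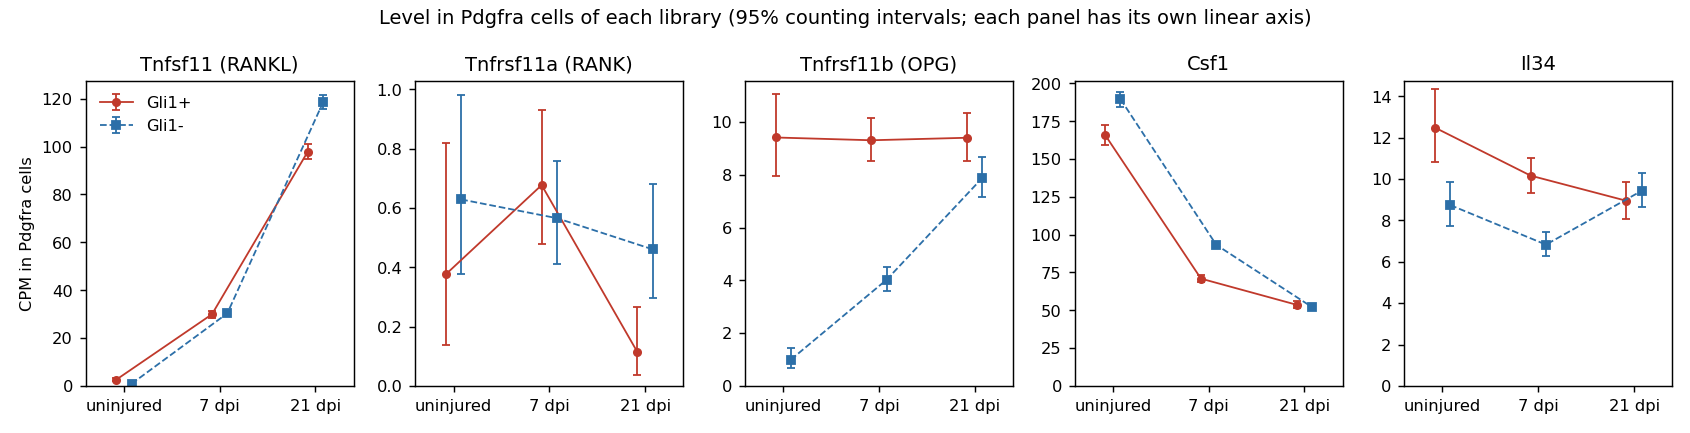
Level of each of the 5 genes in Pdgfra cells of the 6 libraries, in CPM on a linear axis of its own per gene, with red circles for Gli1+, blue squares for Gli1- and bars for exact Poisson 95% intervals. Tnfsf11 runs from 2.57 to 97.9 CPM in Gli1+ cells and from 0.861 to 119 CPM in Gli1- cells, while Csf1 runs the other way and Tnfrsf11b separates the sorts before injury.

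Csf1 took the opposite order in the same cells. Over all Pdgfra cells it was highest in uninjured tendon, lower at 7 dpi and lowest at 21 dpi in each sort. The levels were 166, 70.9 and 53.6 CPM in Gli1+ Pdgfra cells and 189.6, 93.2 and 52.1 CPM in Gli1- Pdgfra cells. Log2 ratios over uninjured tendon were -1.23 [-1.30, -1.15] and -1.63 [-1.71, -1.55] in Gli1+ cells and -1.02 [-1.07, -0.97] and -1.86 [-1.93, -1.8] in Gli1- cells. At 21 dpi the 2 sorts differed by a log2 ratio of 0.04 [-0.04, 0.12]. The ratios at 7 dpi lay near the 2-fold line, and with trimmed mean scaling, which sets the bulk of genes level, they were -0.96 and -0.87. Among cells of 5000 to 12000 UMIs they were -0.65 and -0.54, and there the Gli1+ ratio at 21 dpi was -0.89. In Gli1+ cells of under 5000 UMIs the order was different, with 88.4 CPM [68.2, 113] in uninjured tendon, 105 CPM [91.9, 119.7] at 7 dpi and 79.5 CPM [68.7, 91.5] at 21 dpi.

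Tnfrsf11b, the decoy receptor, separated the sorts before injury. Gli1+ Pdgfra cells held it at 9.41 CPM [7.97, 11] in uninjured tendon, 9.31 CPM [8.53, 10.1] at 7 dpi and 9.40 CPM [8.52, 10.4] at 21 dpi. Gli1- Pdgfra cells held it at 0.993 CPM [0.670, 1.42], 4.02 CPM [3.59, 4.49] and 7.89 CPM [7.16, 8.67]. Before injury the Gli1+ level was 9.48-fold the Gli1- level (log2 ratio 3.24 [2.67, 3.86]), and at 21 dpi the ratio was 0.25 [0.06, 0.45]. Over uninjured tendon the Gli1+ log2 ratios were -0.02 [-0.28, 0.26] at 7 dpi and -0.00 [-0.27, 0.28] at 21 dpi, and the Gli1- ones were 2.02 [1.48, 2.61] and 2.99 [2.45, 3.57]. In Gli1+ cells of 5000 to 12000 UMIs the 2 ratios were 0.55 and 0.79. The near-level Gli1+ values pool cell types that did not run alike (defined further on). Other Pdgfra cells went from 4.0 CPM [2.48, 6.12] to 12.0 CPM [10.7, 13.5] and 10.2 CPM [8.59, 12.03]. Adventitial-like cells, 841 of the 1627 uninjured Pdgfra cells, changed less. They held 78 Tnfrsf11b UMIs of 8922376 before injury, 185 of 25472055 at 7 dpi and 168 of 20480027 at 21 dpi. Tenocyte-like cells went from 24.5 CPM to 6.97 and 15.8 CPM, but these values include cells without a Pdgfra UMI, which lie outside the pool. Tenocyte-like cells made up 6.23% of the Gli1+ uninjured library and held 38.5% of its Tnfrsf11b UMIs, and made up 0.889% of the Gli1- one and held 21.8%. The part of that cell mixture in the difference between sorts was not tested. In the Gli1+ uninjured library myeloid cells held 17 Tnfrsf11b UMIs of 2514984 and mural cells 5 of 685446, beside 150 of 15937863 in Pdgfra cells. Endothelial cells there held 0 of 1693147 and lymphoid cells 3 of 26014776. In the Gli1- uninjured library mural cells held 5 of 2358077 and endothelial cells 2 of 9639404. The part of background RNA in the difference between sorts was not tested either. The 2 uninjured libraries also differed in sex call, at 68.7% of cells with Xist alone in the Gli1+ library and 60.9% with a Y-linked transcript alone in the other. Among Pdgfra cells with a Y-linked transcript and no Xist, Tnfrsf11b was at 7.82 CPM for Gli1+ (30 UMIs in 384 cells) and 1.11 CPM for Gli1- (26 UMIs in 3353 cells), a log2 ratio of 2.81 [2.01, 3.63].

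Il34, the other CSF1R ligand, was at 12.5, 10.2 and 8.95 CPM in Gli1+ Pdgfra cells and at 8.74, 6.83 and 9.43 CPM in Gli1- Pdgfra cells, in the order uninjured, 7 dpi and 21 dpi. No library differed from its uninjured control by 2-fold, and the Gli1- ratio at 21 dpi was 0.11 [-0.11, 0.33]. Tnfrsf11a, the RANKL receptor, was at 0.114 to 0.677 CPM in Pdgfra cells of all 6 libraries, from 5 to 45 UMIs, and its 4 ratios over uninjured tendon had intervals that included 0.

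Of the 5 genes, those with 20 or more UMIs in both groups together numbered 5 in every contrast except Gli1+ 21 dpi, where they numbered 4. At 7 dpi in Gli1+ cells 1 of 5 was at least 2-fold higher (Tnfsf11) and 1 lower (Csf1), where 15.5% of all genes with as many UMIs were higher and 20.5% lower. At 21 dpi in Gli1+ cells it was 1 higher and 1 lower of 4, against 8.54% and 20.6% of all genes. In Gli1- cells Tnfsf11 and Tnfrsf11b were higher and Csf1 lower at both times, 2 and 1 of 5, against 15.6% and 16.3% of all genes at 7 dpi and 13.7% and 17.3% at 21 dpi. The median log2 ratio of all genes was -0.16 and -0.31 at 7 and 21 dpi in Gli1+ cells and -0.07 and -0.12 in Gli1- cells. Between the sorts, paired by time point, the mean log2 difference of Gli1+ minus Gli1- was 1.57 ± 1.53 for Tnfrsf11b (SD, n = 3 pairs, higher in 3 of 3, exact two-sided permutation p = 0.25, the smallest that 3 pairs can give). The pairs were different time points, at 3.24, 1.21 and 0.25 in the order uninjured, 7 dpi, 21 dpi. The SD therefore holds change with time and is not a spread between replicates, and the uninjured pair also differed in sex call. For the other 4 genes the mean lay between -0.83 and 0.43, with SDs of 0.22 to 1.14 and exact p of 0.5 to 1.

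The promoters of the 2 genes that moved in opposite directions in the Pdgfra cells are shown for context, from RefSeq on build GRCm38.p6, 250 bases before to 50 after the annotated start and written 5′ to 3′ on the gene's strand. RefSeq's table gave a promoter for 3 of the 5 genes, which lie on chromosomes 14 (Tnfsf11), 1 (Tnfrsf11a), 15 (Tnfrsf11b), 3 (Csf1) and 8 (Il34). The motifs searched on both strands were TATAAA (the TATA box), TGACG and TGACGTCA (the cyclic AMP response element and its core, the longer containing the shorter), TGANTCA (AP-1) and TGTGGT (RUNX), and capitals mark a match. Of 32851 mouse promoters of this length 13.6%, 20.8%, 1.79%, 7.81% and 16.8% held them, in that order.
Tnfsf11, chr14:78307994-78308293, minus strand: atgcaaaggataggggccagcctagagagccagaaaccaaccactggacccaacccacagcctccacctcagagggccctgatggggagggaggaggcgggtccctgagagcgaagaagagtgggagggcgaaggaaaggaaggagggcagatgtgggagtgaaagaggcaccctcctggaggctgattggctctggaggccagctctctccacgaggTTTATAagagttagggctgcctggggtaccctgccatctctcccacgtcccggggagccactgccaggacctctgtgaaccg
Csf1, chr3:107760420-107760719, minus strand: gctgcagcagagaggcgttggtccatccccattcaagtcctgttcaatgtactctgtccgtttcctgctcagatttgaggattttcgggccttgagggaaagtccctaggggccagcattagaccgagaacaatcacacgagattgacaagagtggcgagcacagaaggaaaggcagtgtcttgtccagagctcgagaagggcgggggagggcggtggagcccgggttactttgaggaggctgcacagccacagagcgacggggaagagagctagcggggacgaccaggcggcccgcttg
The Tnfsf11 window held the TATA motif, read as TTTATA on this strand, 32 bases before the annotated start, and none of the others. The Csf1 window held none of the 5 motifs.

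Cell types were set by marker genes, and the position of Tnfsf11 among them changed with injury. Pdgfra cells without other markers are called other Pdgfra cells here, and adventitial-like cells had Pi16 or Dpp4 (markers of the sheath and adventitial fibroblast reserve). Tenocyte-like cells had Scx and 5 or more UMIs of Fmod (a tendon transcription factor and a tendon proteoglycan). Bone-gene cells had 5 or more UMIs of the osteoblast genes Bglap, Bglap2 or Ibsp and under 5 UMIs of Col2a1. Cells that met both rules were counted as cartilage-gene cells. At 21 dpi Ibsp was at 13416 and 3445 CPM in cartilage-gene cells and 13226 and 8646 CPM in bone-gene cells (Gli1+, Gli1-). Col2a1 and not Ibsp thus sets these types apart. At 21 dpi Tnfsf11 was at 189.7 CPM in other Pdgfra cells of the Gli1+ library and 205 CPM in those of the Gli1- library. Bone-gene cells held 152 and 282 CPM, from 90 and 120 cells. Tenocyte-like cells held 52.1 and 69.7 CPM, adventitial-like cells 39.3 and 62.8 CPM, and cartilage-gene cells 34.5 [27.8, 42.4] and 49.1 [42.9, 56.03] CPM. Schwann cells of the Gli1- 21 dpi library gave 84.7 CPM [60.3, 116] from 39 UMIs. The log2 ratio of other Pdgfra over adventitial-like cells was 2.27 [2.16, 2.39] in the Gli1+ library and 1.71 [1.62, 1.79] in the Gli1- library. At 7 dpi the same types lay closer together, at 36.0 and 34.9 CPM in other Pdgfra cells, 24.3 and 27.1 CPM in adventitial-like cells and 25.8 and 28.5 CPM in tenocyte-like cells.

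**Figure D2:**
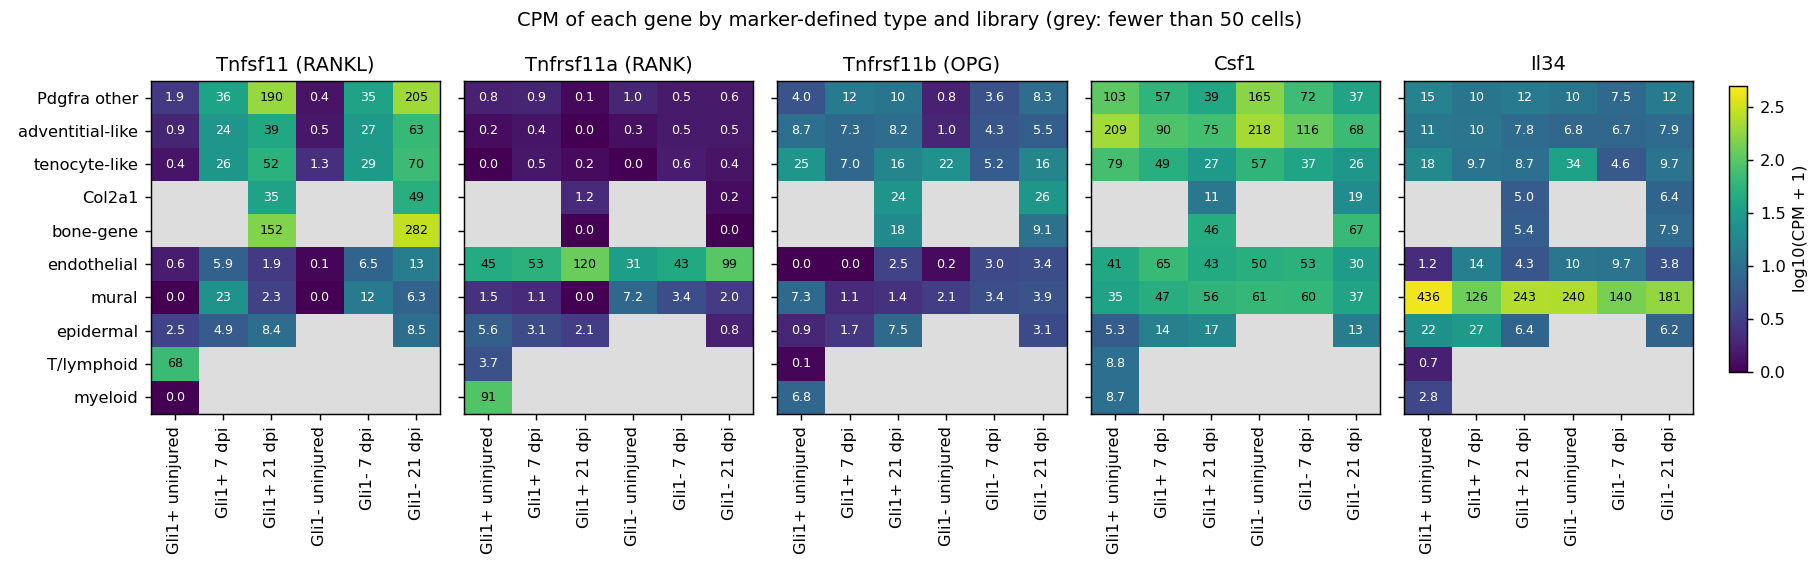
Map of the 5 genes by marker-defined cell type (rows) and library (columns), each box coloured by log10(CPM + 1) with its CPM printed in it, grey where a type had fewer than 50 cells. At 21 dpi Tnfsf11 stands at 189.7 and 205 CPM in other Pdgfra cells, Tnfrsf11a at 120.3 and 98.7 CPM in endothelial cells, and Il34 at 243 and 181 CPM in mural cells.

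Before injury most Tnfsf11 of the Gli1+ library lay in lymphoid cells. There 3125 T and other lymphoid cells held 1771 of 2175 Tnfsf11 UMIs, or 81.4%, at 68.1 CPM [64.9, 71.3]. Those with a UMI of Trdc (the constant part of the gamma-delta T cell receptor) or Il17a were at 88.1 CPM and the rest at 57.5 CPM, a log2 ratio of 0.62 [0.48, 0.75]. Myeloid cells of that library, 287 in number, had 0 Tnfsf11 UMIs. The 21 bone-gene cells held 24 UMIs, or 85.4 CPM, too few cells to set beside the other types. The Gli1- uninjured library, with 1 lymphoid cell, held 40 Tnfsf11 UMIs in all, of which 26 were in Pdgfra cells and 12 in 8 bone-gene cells, groups that can overlap. Whole-library values for the Gli1+ sort therefore mix a lymphoid source before injury with a mesenchymal one after it. They were 30.6, 22.6 and 66.7 CPM for the Gli1+ sort and 0.638, 27.5 and 76.4 CPM for the Gli1- sort, and other Pdgfra, adventitial-like and tenocyte-like cells held 35.4%, 10.8% and 11.2% of the Gli1+ UMIs at 21 dpi, with 33.4% in mixed cells.

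Tnfrsf11b was highest, among mesenchymal types with 50 or more cells, in tenocyte-like cells before injury and in cartilage-gene cells at 21 dpi. Tenocyte-like cells held it at 24.5, 6.97 and 15.8 CPM for the Gli1+ sort and 22.0, 5.17 and 15.9 CPM for the Gli1- sort, lowest at 7 dpi in both. Before injury the sorts were alike in this type within counting error, and differed in adventitial-like cells (8.74 and 0.974 CPM) and in other Pdgfra cells (4.0 and 0.775 CPM). Cartilage-gene cells held 24.2 CPM [18.6, 30.9] and 26.1 CPM [21.6, 31.3] at 21 dpi.

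Csf1 was highest in adventitial-like cells of every library among types with 50 or more cells, at 209, 89.7 and 75.1 CPM for the Gli1+ sort and 218, 116 and 68.3 CPM for the Gli1- sort. Other Pdgfra cells held 103, 56.8 and 39.3 CPM and 165, 71.7 and 36.9 CPM, and tenocyte-like cells 79.2, 48.6 and 27 CPM and 57.0, 36.7 and 25.9 CPM. The order uninjured, 7 dpi, 21 dpi was thus the same in each of the 3 types and both sorts. Endothelial cells gave no such order for the Gli1+ sort (40.8, 64.7 and 43.4 CPM) or the Gli1- sort, where uninjured tendon at 50.003 CPM [45.6, 54.7] and 7 dpi at 52.8 CPM [45.9, 60.4] were alike within counting error and 21 dpi was at 29.9 CPM. Bone-gene cells of the Gli1- 21 dpi library, at 66.8 CPM [54.9, 80.5], could not be told from the adventitial-like cells there.

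Il34 was at its highest level in mural cells of every library, among types of 50 or more cells. Mural cells, the pericytes and smooth muscle of vessels, held it at 436, 126 and 243 CPM for the Gli1+ sort and 240.0, 139.8 and 181 CPM for the Gli1- sort, against 4.63 to 33.7 CPM in tenocyte-like cells. Schwann cells came next in the Gli1- sort, at 72.0, 54.7 and 47.8 CPM. Mural cells were few, and in the Gli1+ 7 dpi library they held 114 of 1600 Il34 UMIs, against 410 in epidermal cells. Both sorts were lowest at 7 dpi, with log2 ratios over uninjured tendon of -1.79 [-2.11, -1.47] and -0.78 [-0.96, -0.60], and -0.85 [-1.04, -0.65] and -0.41 [-0.55, -0.26] at 21 dpi. The Gli1+ uninjured value rests on 107 cells.

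Tnfrsf11a was highest in endothelial cells among types of 50 or more cells, except in the Gli1+ uninjured library, where myeloid cells were higher. Endothelial cells held it at 44.9, 52.9 and 120.3 CPM for the Gli1+ sort and at 31.1, 42.8 and 98.7 CPM for the Gli1- sort. The log2 ratio at 21 dpi over uninjured tendon was 1.42 [1.03, 1.82] and 1.66 [1.48, 1.85]. The Gli1+ ratio stayed past 2-fold in all 8 of its alternatives. The Gli1- ratio did so in 6 of its 7 and was 0.92 at its lowest. Median depth of the Gli1- endothelial cells was 2662 UMIs in uninjured tendon and 4777 at 21 dpi, and the part of depth was not tested. Endothelial cells without a UMI of Prox1 (the lymphatic endothelial regulator) gave 1.61 [1.17, 2.06] and 2.08 [1.86, 2.31]. Those with a Prox1 UMI did not follow this, at 149 CPM [121, 182] in uninjured tendon, 75.5 CPM [53.9, 103] at 7 dpi and 123 CPM [106, 141] at 21 dpi for the Gli1- sort, and at 90.2, 119 and 127 CPM for the Gli1+ sort from 17, 10 and 22 UMIs. A cell without a Prox1 UMI at this depth can still be lymphatic, and the part of lymphatic cells in the difference was not tested. Endothelial cells with a Prox1 UMI numbered 125 of 3013 in the uninjured and 237 of 1731 in the 21 dpi Gli1- library. Endothelial cells held 9.90%, 15.5% and 62.8% of the Tnfrsf11a UMIs of the Gli1+ sort at the 3 times and 64.9%, 48.9% and 71.7% of those of the Gli1- sort.

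Csf1r, the usual partner of RANK on osteoclast precursors, was high in 1 library only. Its whole-library level was 51.1 CPM in the Gli1+ uninjured library, which held 287 myeloid cells, and 1.59 to 3.21 CPM in the other 5, the uninjured Gli1- library included. Of the 3631 Csf1r UMIs in the Gli1+ uninjured library, 1807 lay in myeloid cells and 1686 in the 933 cells set aside as mixed. Myeloid cells of the Gli1+ uninjured library, at 718 CPM of Csf1r, also held Tnfrsf11a at 91.5 CPM [80.0, 104]. Cells with a UMI of both receptors numbered 207 in that library and 0 to 6 in the others. Of 6 osteoclast genes other than Ctsk and Mmp9 (Acp5, Ocstamp, Dcstamp, Calcr, Oscar and Atp6v0d2), 3 or more were seen in 1 cell of the Gli1- 7 dpi library and in 0 cells of the other 5, which allows up to 0.0249% to 0.0400% of cells by library to show 3 of them at this depth. It does not limit the share of osteoclasts, since Ocstamp, Dcstamp and Oscar had at most 68 UMIs each in a library. With Ctsk and Mmp9 counted, 0 to 67 cells per library had 3 or more of the 8.

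Over all depths, cartilage-gene cells at 21 dpi held less Tnfsf11 and more Tnfrsf11b than the Pdgfra cells of their own library. These cells also carried Acan at 2277 and 2419 CPM and Col9a1 at 1233 and 1619 CPM, both cartilage matrix genes, and Ibsp, a gene of mineralizing cells, at 13416 CPM for Gli1+ and 3445 CPM for Gli1-. Tnfsf11 had 90 UMIs in the Gli1+ and 222 UMIs in the Gli1- cartilage-gene cells, and its log2 ratio over Pdgfra cells was -1.5 [-1.82, -1.20] and -1.27 [-1.47, -1.08]. The Gli1- ratio turned to 0.39 among cells of 5000 to 12000 UMIs and stayed past 2-fold in 9 of its 12 alternatives. Tnfrsf11b had 63 and 118 UMIs, with ratios of 1.36 and 1.73. The Gli1+ ratio was 0.98 with each cell weighted equally and 0.23 among cells of 5000 to 12000 UMIs, from 5 UMIs, both under 2-fold. Csf1 was at 11.1 CPM [7.45, 16] and 19.5 CPM [15.6, 24.0], with ratios of -2.27 and -1.42, and Il34 had ratios of -0.84 and -0.56. Tnfrsf11a had 3 UMIs in the Gli1+ and 1 UMI in the Gli1- cartilage-gene cells. Of the genes with enough UMIs, 1 was 2-fold higher and 2 lower of 4 in the Gli1+ library, where 7.54% of all genes were higher and 19.9% lower. In the Gli1- library 1 was higher and 3 lower of 5 (the third being Tnfrsf11a, 1 UMI against 25), where 7.53% and 16.8% of all genes were, and the all-gene medians were -0.19 and -0.18.

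The ratio of Tnfsf11 to Tnfrsf11b UMIs, a transcript measure of the osteoclast-supporting balance, was computed within each group, so total RNA and scaling cancel. In Pdgfra cells it was 0.273 [0.189, 0.388], 3.22 [2.91, 3.56] and 10.4 [9.41, 11.5] Tnfsf11 UMIs per Tnfrsf11b UMI for the Gli1+ sort in the order uninjured, 7 dpi, 21 dpi. The Gli1- libraries gave 0.867 [0.492, 1.52], 7.54 [6.71, 8.5] and 15.03 [13.6, 16.6]. Over all Pdgfra cells the order of the 3 times was the same in both sorts, but not in every depth class. Cells over 12000 UMIs gave 0.23, 3.69 and 18.1 for Gli1+ and 0.556, 7.96 and 22.7 for Gli1-. In Gli1- cells of 5000 to 12000 UMIs the balance was higher at 7 than at 21 dpi, at 1.36, 5.35 and 3.67, whereas Gli1+ cells of that class gave 0.311, 2.23 and 3.20. Under 5000 UMIs it was 1, 8.33 and 5.6 for Gli1- and 0.8, 1 and 0.931 for Gli1+, from 1 to 29 Tnfrsf11b UMIs per library. Since capture of the 2 transcripts can differ, a ratio is read against other ratios and not against 1. In cartilage-gene cells at 21 dpi the ratio was 1.43 [1.02, 2.0] in the Gli1+ and 1.88 [1.5, 2.37] in the Gli1- library. That was 7.29-fold and 7.99-fold below the Pdgfra cells of the same library, a log2 difference of -2.87 [-3.37, -2.35] and -3.00 [-3.36, -2.63]. Tenocyte-like cells were also below, at 3.3 and 4.38 (log2 difference -1.66 and -1.78), in cell types that overlap the Pdgfra cells in part, with other Pdgfra cells at 18.6 and 24.7 and adventitial-like cells at 4.79 and 11.4. Tenocyte-like cells did not follow the order of the Pdgfra cells, since they gave 0.0171, 3.70 and 3.3 for Gli1+ and 0.0588, 5.52 and 4.38 for Gli1-, with 2 and 1 Tnfsf11 UMIs before injury, and the intervals at 7 and 21 dpi overlapped. Bone-gene cells, at 8.5 and 31 from 20 and 15 Tnfrsf11b UMIs, did not stand on the same side of the Pdgfra cells in both libraries (-0.29 [-0.98, 0.47] and 1.04 [0.29, 1.91]).

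**Figure D3:**
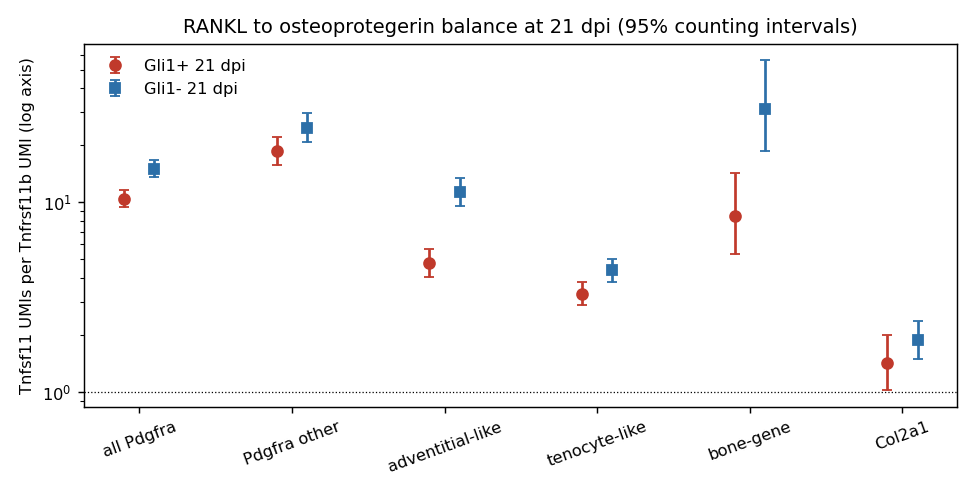
Tnfsf11 UMIs per Tnfrsf11b UMI at 21 dpi by cell group, on a log axis, with red circles for Gli1+, blue squares for Gli1-, bars for exact conditional 95% intervals and a dotted line at equal UMIs. Cartilage-gene cells lie at 1.43 and 1.88, below Pdgfra cells at 10.4 and 15.03.

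Cell depth moved with the balance. Tnfsf11 at 21 dpi was at 11.1, 29.3 and 169 CPM in Gli1+ Pdgfra cells of under 5000, 5000 to 12000 and over 12000 UMIs, and at 16.8, 27.5 and 199 CPM in Gli1- ones. In the middle class the balance was 3.20 and 3.67 in Pdgfra cells and 1 and 1.88 in cartilage-gene cells, from 5 and 30 Tnfsf11 UMIs in 50 and 91 cells. There the log2 difference was -1.68 in the Gli1+ and -0.97 in the Gli1- library, and the Tnfsf11 ratio alone was reversed in the Gli1- library, at 0.39 in place of -1.27. Above 12000 UMIs the balance was 18.1 and 22.7 in Pdgfra cells and 1.47 and 1.88 in cartilage-gene cells. With cartilage-gene cells set at 2 or more Col2a1 UMIs the difference was -2.35 and -1.43.

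Most Tnfsf11 UMIs of Pdgfra cells at 21 dpi came from few cells. Cells with 5 or more UMIs numbered 1, 79 and 235 for the Gli1+ sort in the order uninjured, 7 dpi, 21 dpi, and 2, 119 and 371 for the Gli1- sort. At 21 dpi they were 5.51% [4.85, 6.24] and 7.12% [6.43, 7.85] of Pdgfra cells (exact binomial intervals) and held 81.5% and 81.4% of the Tnfsf11 UMIs. At 7 dpi they were 1.67% and 1.89% of cells and held 35.4% and 38.8% of the UMIs, so the gene was spread over more cells with 1 to 4 UMIs. Just below the line of 5 UMIs, 107 and 162 cells had 3 or 4 at 21 dpi, and just above it 59 and 73 cells had 5 or 6, so the line cuts a continuous range that reached 75 UMIs in a cell. These cells were deep, with a median of 19824 and 19425 UMIs at 21 dpi against 8719 and 8291.5 in cells with 0. Among Pdgfra cells of 12000 or more UMIs alone they were 16.1% and 20.7% at 21 dpi and 3.41% and 3.61% at 7 dpi.

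**Figure D4:**
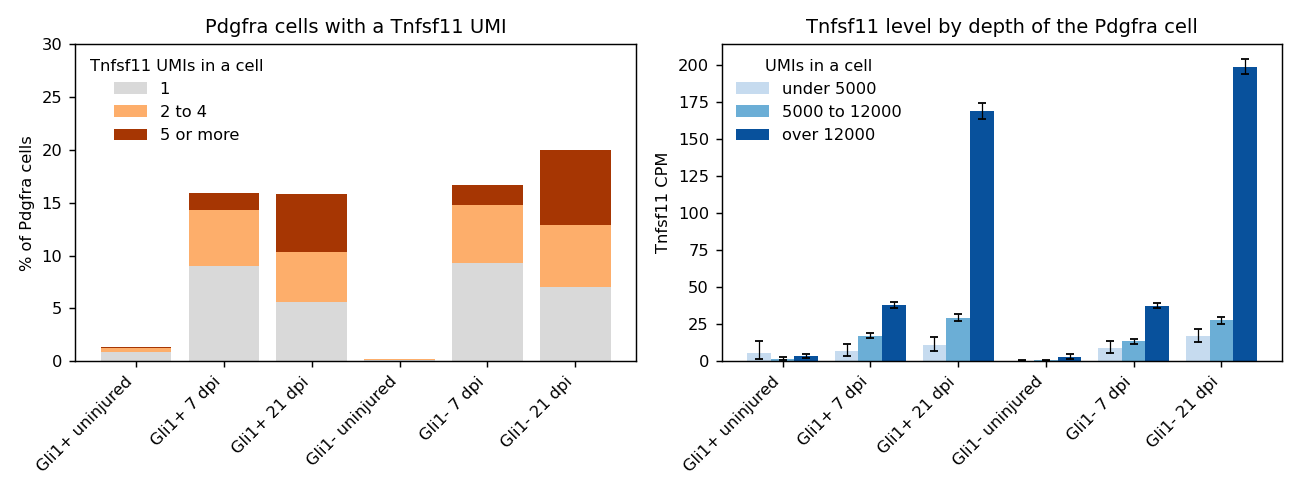
Left, percentage of Pdgfra cells with 1, 2 to 4 and 5 or more Tnfsf11 UMIs, stacked by library; right, Tnfsf11 CPM of Pdgfra cells in 3 classes of UMIs per cell, with exact Poisson 95% intervals. Cells of 5 or more UMIs are 5.51% and 7.12% at 21 dpi, where cells of over 12000 UMIs stand at 169 and 199 CPM.

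What else these cells expressed was described among Pdgfra cells of 12000 or more UMIs, comparing cells of 5 or more Tnfsf11 UMIs with cells of 0 in the same library. The genes were ranked by the mean difference in log2(CPM + 10) over the 4 libraries after injury, cells were grouped by the measured gene, and the lists are given as a description with no test. The 5 highest were Il11 (mean difference 3.55), Csf3 (3.23), Il1rl1 (3.01), Cxcl5 (2.96) and Mmp3 (2.92), and each was 2-fold higher in all 4 libraries. Il11 and Csf3 are cytokines, Il1rl1 is the IL-33 receptor, Cxcl5 attracts neutrophils and Mmp3 is a matrix-degrading enzyme. At 21 dpi Il11 was at 436 and 350.4 CPM in the high cells against 10.7 and 15.2 CPM in the cells with 0, and the acute-phase gene Saa3 at 20676 and 26453 CPM against 1939 and 2237 CPM. Mmp13, the collagenase of hypertrophic cartilage and bone, was at 6441 and 6705 CPM against 299.8 and 579 CPM at 21 dpi, but at 50.6 CPM against 57.3 CPM in the Gli1+ 7 dpi library. The lowest were Eln (-2.45), Clec3b (-2.41), Mfap4 (-2.16) and Pi16 (-2.14), genes of elastic fibres and of the adventitial fibroblast reserve. Tnfrsf11b, Csf1 and Il34 had mean differences of -0.37, -0.59 and 0.15, so none of these 3 genes stood near the top. The high cells were deeper than the others even here, with medians of 19031.5 to 22082 against 14650 to 16122 UMIs, and the part of depth in these differences was not tested.

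**Figure D5:**
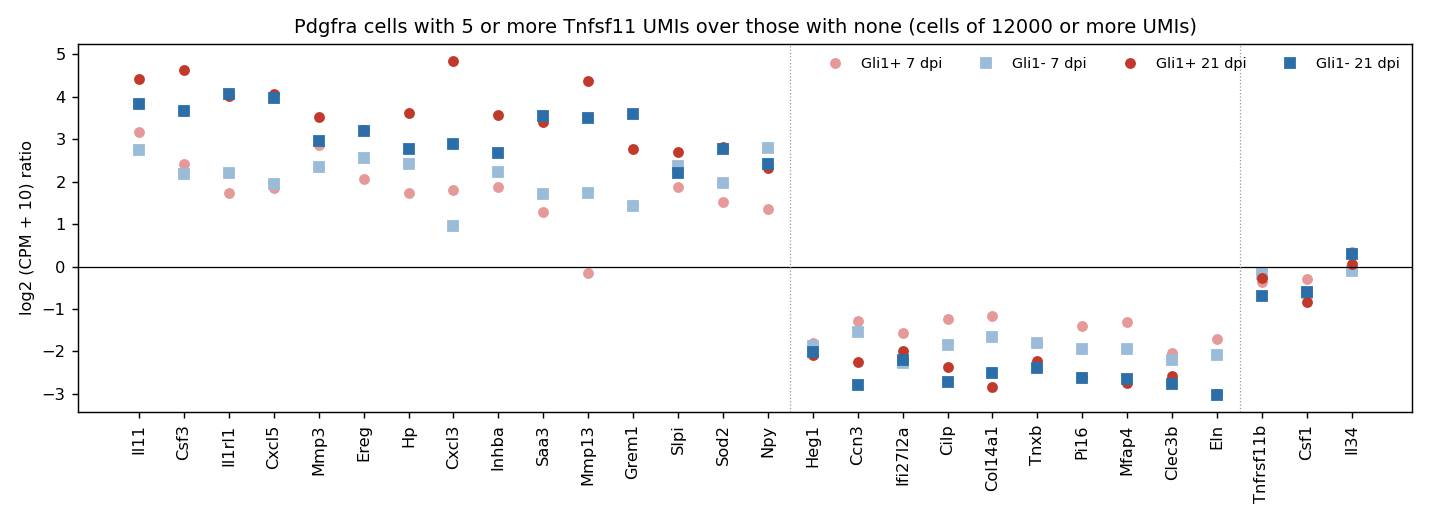
Difference in log2(CPM + 10), on a linear axis, between Pdgfra cells of 5 or more and of 0 Tnfsf11 UMIs among cells of 12000 or more UMIs, by gene, 1 point per library after injury, with Tnfrsf11b, Csf1 and Il34 at the right. Il11, Csf3 and Cxcl5 lie above 1 in all 4 libraries and Eln, Clec3b and Pi16 below -1.

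The pathway lists were counted in the same Pdgfra contrasts by the same 2-fold line. They were chosen with earlier results of these data known, so their counts, here and below, are a description and not independent evidence. Stromal modulators of osteoclasts, secreted or membrane-bound factors that raise or lower osteoclast formation, had more genes past the 2-fold line upward than downward in each contrast. Over all genes the shares higher and lower were 15.5% and 20.5% in Gli1+ cells at 7 dpi, 8.54% and 20.6% at 21 dpi, and 15.6% and 16.3%, then 13.7% and 17.3%, in Gli1- cells, with medians of -0.16, -0.31, -0.07 and -0.12. In Gli1+ cells 5 of 13 measured genes were higher and 0 lower at 7 dpi (median log2 ratio 0.76), and 9 of 12 higher and 0 lower at 21 dpi (1.21). In Gli1- cells it was 8 higher and 1 lower of 13 at 7 dpi (1.78), and 7 higher and 1 lower of 13 at 21 dpi (1.92). Il11 was at 3.01 CPM in uninjured and 56.9 CPM in 21 dpi Gli1+ cells, and at 1.49 and 64.9 CPM in Gli1- cells. Wnt16, which restrains osteoclast formation, was at 3.58 and 26.0 CPM for Gli1+ and 0.364 and 18.9 CPM for Gli1- cells. Csf3 had 1 UMI in the Gli1+ uninjured cells and was at 41.5 CPM at 21 dpi (log2 ratio 9.37 [6.89, 14.67]), and at 1.69 and 62.4 CPM in Gli1- cells. Sfrp1, a WNT antagonist, was at 102 and 685 CPM for Gli1+ and 84.5 and 819.8 CPM for Gli1- cells of uninjured tendon and 7 dpi. Tnfsf10 was the gene that was lower in Gli1- cells at 21 dpi, at 4.14 and 0.424 CPM.

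Receptors of factors that induce RANKL had counts that mostly lay near the shares over all genes (8.54% to 15.6% higher and 16.3% to 20.6% lower). In Gli1+ cells 1 was higher and 2 lower of 11 at 7 dpi and 1 and 1 at 21 dpi (medians -0.03 and 0.03), and in Gli1- cells 2 and 4 at 7 dpi and 2 and 2 at 21 dpi (medians -0.35 and -0.50). Vdr, the vitamin D receptor, was at 4.96 and 10.2 CPM in Gli1+ cells of uninjured tendon and 21 dpi and at 2.52 and 13.5 CPM in Gli1- cells. Pth1r, the parathyroid hormone receptor, was at 9.34 and 33.8 CPM in Gli1- cells, and at 30.5 and 38.2 CPM in Gli1+ cells. Lifr, the receptor of leukaemia inhibitory factor, was at 91.2 and 16.3 CPM for Gli1+ and 216 and 34.7 CPM for Gli1- cells, and Il17ra at 174 and 43.2 CPM in Gli1- and at 51.01 and 46.4 CPM in Gli1+ cells. The receptor and ligand of 1 pathway thus ran opposite ways, since Lif was at 5.40 and 12.0 CPM for Gli1+ and 3.34 and 14.1 CPM for Gli1- cells.

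Osteoclast effectors were counted in the Pdgfra cells too, where Ctsk is also known from fibroblasts. In Gli1+ cells 2 were higher and 3 lower of 10 at 7 dpi and 3 and 1 of 9 at 21 dpi, and in Gli1- cells 4 and 1 of 9 at both times. Their medians were -0.02, -0.25, 0.42 and 0.44 in that order, beside all-gene medians of -0.16, -0.31, -0.07 and -0.12. Over all genes 15.5%, 8.54%, 15.6% and 13.7% were higher and 20.5%, 20.6%, 16.3% and 17.3% lower, so the Gli1+ counts at 7 dpi lay near those shares. Ctsk, the main collagenase of osteoclasts, was at 158 and 885 CPM for Gli1+ and 119.8 and 729 CPM for Gli1- cells of uninjured tendon and 21 dpi. Acp5, the tartrate-resistant phosphatase, was at 4.07 and 29.2 CPM in Gli1- cells, with a log2 ratio of 2.86 for the Gli1+ sort. Receptors and signalling genes downstream of RANK and CSF1R counted 0 higher and 6 lower of 13 at 7 dpi and 1 and 3 of 13 at 21 dpi in Gli1+ cells (medians -0.85 and -0.55), and 4 and 2 of 12 and 2 and 0 of 11 in Gli1- cells (medians 0.13 and -0.09), and several of these counts too lay near the shares over all genes. Of the 6 that were lower, Csf1r, Spi1, Tyrobp and Fcer1g are myeloid genes and lay at 1.13 to 4.83 CPM in uninjured Gli1+ Pdgfra cells, in the library that held 287 myeloid cells, and the part of myeloid RNA was not tested. Mitf, a transcription factor that osteoclasts share with other cells, was at 179.9 and 41.2 CPM in Gli1+ cells of uninjured tendon and 7 dpi and at 153 and 43.6 CPM in Gli1- cells.

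In cartilage-gene cells at 21 dpi, stromal modulators and osteoclast effectors had lower medians than all genes, against Pdgfra cells of the same library. Over all genes 7.54% were higher and 19.9% lower in the Gli1+ library (median -0.19), and 7.53% and 16.8% in the Gli1- library (-0.18). Stromal modulators counted 0 higher and 10 lower of 12 in the Gli1+ library (median -2.28) and 0 higher and 8 lower of 13 in the Gli1- library (-1.45). Cxcl12, a chemokine of marrow and perivascular stroma, was at 81.7 against 594 CPM and at 142 against 779.7 CPM. Osteoclast effectors counted 0 higher and 6 lower, and 0 and 5, of 9 (medians -1.65 and -1.26), with Ctsk at 336 against 885 CPM and 305 against 729 CPM. Pth1r and Nfatc1 stood the other way. Pth1r was at 471 against 38.2 CPM for Gli1+ and 429 against 33.8 CPM for Gli1-, and Nfatc1, the transcription factor downstream of RANK that many cells use, at 302 against 119.9 CPM and 334 against 140.3 CPM. The other lists lay nearer to all genes. Receptors of RANKL inducers counted 2 higher and 4 lower and 1 and 4 of 11 (medians -0.40 and -0.64), and receptors and signalling genes 1 and 3 of 11 in both (-0.31 and -0.37).

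Genes whose level was most like each of the 5 were found over 42 units, a unit being a cell type of 100 or more cells in a library, by Pearson's r of log2(CPM + 10). The units share libraries and depth, so r is a description. For Tnfsf11 they were Cemip (0.88), Gzmc (0.86), Podnl1 (0.83), Myo16 (0.83) and Ereg (0.82). For Tnfrsf11b the first was Comp (0.84), a matrix protein of tendon and cartilage, and for Csf1 Plpp3 (0.88). Tnfrsf11a was closest to Csf2rb (0.97), Sh3tc1 (0.97), Kcnq1 (0.96) and the lymphatic endothelial receptor gene Lyve1 (0.94), and Il34 to Klhl23 (0.94) and the muscle integrin gene Itga7 (0.94). Among the 5 themselves r was at most 0.34 in either direction, the highest being Tnfsf11 with Tnfrsf11b at 0.34 and the lowest Tnfsf11 with Tnfrsf11a at -0.34.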

How the data were processed

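Cells sorted from Achilles tendon were profiled with 10x 3′ v3 chemistry in 6 libraries. The deposited matrices hold raw UMI counts per gene and cell, made by the authors. Per the labels Cell Ranger 3.1.0 and STAR were used on mm10, whereas the file headers name Cell Ranger 9.0.0, so the build behind the counts was not settled and no coordinate was taken from them. Barcodes were kept by the study's stated limits: 200 or more genes, 1000 or more UMIs, log10 genes over log10 UMIs of 0.7 or more, and at most 5% mitochondrial and 5% haemoglobin UMIs. The study ran DoubletFinder, whose calls were not used here, no doublet caller was run, and cells with markers of 2 lineages were set aside. Lineages needed 3 markers. Counts were summed per library and cell group and divided by the group's total to give CPM, with exact Poisson, binomial or conditional 95% intervals (scipy 1.17.1, numpy 2.4.6, pandas 2.3.3, Python 3.11.15). Depth was 62710551 to 122826699 UMIs per library. A gene was counted at a 2-fold difference if it had 20 or more UMIs in both groups together. In each pathway list and contrast at most 4 genes were open to naming, those of largest log2 ratio with 50 or more UMIs, and a few of these were named at a second time point, while Lif at 21 dpi and the genes of the Tnfsf11-high cells were chosen after their values were seen. Trimmed mean scaling (edgeR 4.0.16, R 4.3.3), other gates, equal weighting of cells, depth classes and sex calls were tried as alternatives. The sorts were compared over 3 pairs of libraries, matched by time point, with an exact permutation test. The summing and interval code was tested on simulated counts. The members and lists were chosen with earlier results of these data known.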

Additional observations from a re-analysis of the deposited data

Results flagged for a closer look

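Opposite directions in the 2 sorts drew attention to 5 whole-library or mural-cell contrasts over uninjured tendon, and in each the difference between the sorts was not tested. At 7 dpi the whole-library log2 ratio of Tnfsf11 was -0.44 in the Gli1+ and 5.43 in the Gli1- sort, and that of Il34 was 0.22 and -1.21. At 21 dpi Tnfrsf11a was at -1.96 and 0.89, and Il34 at 0.52 and -0.35. The Gli1+ uninjured library held 41.6% T and other lymphoid cells, which carried 81.4% of its Tnfsf11 UMIs, and myeloid cells that carried 29.9% of its Tnfrsf11a UMIs. A larger part of that library's Tnfrsf11a, 332 of 768 UMIs, lay in cells set aside as mixed. In mural cells at 21 dpi Csf1 had log2 ratios of 0.67 in the Gli1+ sort, from 24 UMIs in the uninjured library, and -0.73 in the Gli1- sort.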

How the results depend on the processing

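Of 32 log2 ratios of 2-fold or more, 269 of 301 alternative values stayed past 2-fold. These include 2 Gli1+ ratios of Tnfrsf11a with under 20 UMIs, 5 against 6 UMIs in Pdgfra cells at 21 dpi over uninjured and 3 against 5 UMIs in cartilage-gene over Pdgfra cells. The number of the 5 genes past 2-fold in Pdgfra cells was 2 in the Gli1+ sort at both times. It was 1 at 7 dpi with each cell weighted equally, and 1 at 7 dpi and 1 at 21 dpi among cells of 5000 to 12000 UMIs, where Csf1 was under the line. With trimmed mean scaling the number stayed 2 at 7 dpi, but Tnfrsf11a was past the line in place of Csf1. In the Gli1- sort it was 3 at both times, and 2 at 7 dpi with each cell weighted equally, among cells of 5000 to 12000 UMIs, without the 5% deepest cells, with Pdgfra at 2 or more UMIs and with trimmed mean scaling, so Csf1 (log2 ratio -1.02) stayed past 2-fold in 6 of its 11 alternatives there. In those cells the whole-library Tnfsf11 ratio of the Gli1+ sort at 21 dpi reversed to -0.90 from 1.12, and the Gli1- ratio of cartilage-gene over Pdgfra cells to 0.39 from -1.27. The balance difference kept its sign in all 12 alternatives of each library, between -3.39 and -1.68 in the Gli1+ and between -3.60 and -0.97 in the Gli1- library. With each cell weighted equally it was -2.05 in the Gli1+ library, among cells of 5000 to 12000 UMIs -1.68 and -0.97, with Pdgfra at 2 or more UMIs -3.39 and -3.60, and with Col2a1 at 2 or more UMIs -2.35 and -1.43. Causes of these shifts were not tested. Trimmed mean scaling raised Pdgfra ratios by 0.26 and 0.40 in the Gli1+ and by 0.16 and 0.19 in the Gli1- sort at 7 and 21 dpi. The contrasts over time and between cell groups were not tested, with 1 library per sort and time point. Cartilage-gene and Pdgfra cells of a contrast came from the same library. Neither kind of contrast was paired or blocked over the sorts. The sorts were paired by time point, an analysis added after seeing the data, and 3 pairs cannot give an exact p below 0.25. The uninjured Tnfrsf11b ratio of the sorts, also taken within Y-linked cells after seeing the data, stayed past 2-fold. With 1 library per group, no value carries the spread between animals. Most libraries were of 1 sex call, and keratin RNA was widespread in the Gli1+ 7 dpi library.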
